A study of Homo sapiens with 6 samples.

Results

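The BCL2 family apoptosis regulators described here were 10 genes of 19876 gene symbols counted in the study. They were listed by name for their role, with earlier results of these data known. They were 4 anti-apoptotic genes (BCL2, BCL2L1, BCL2L2 and MCL1), 2 effector genes (BAX and BAK1) and 4 BH3-only genes (BID, BCL2L11, PMAIP1 and BBC3). RNA sequencing was run on A549, an established human lung adenocarcinoma line whose genotype the labels give as WT. The cells received either PBS (phosphate-buffered saline) as the control or rhTR11B, and each group had 3 libraries called biological replicates. The labels leave rhTR11B unexplained and state neither a dose nor a time; in protein databases TR11B stands for TNFRSF11B, or osteoprotegerin, which is secreted and captures TRAIL and RANKL. All libraries shared the same serum-containing medium. Nothing in the labels says that replicates came from separate cultures, so the p-values rest on a spread between libraries that may be technical.

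BCL2 family proteins control the opening of the outer mitochondrial membrane, the step at which cytochrome c is released and caspases are switched on. BAX and BAK1 form the pore. BCL2, BCL2L1 (BCL-XL), BCL2L2 (BCL-W) and MCL1 hold the effectors in check, and BH3-only proteins such as BID, BCL2L11 (BIM), PMAIP1 (NOXA) and BBC3 (PUMA) relieve that restraint or engage the effectors directly. The BH3 helix of one protein binds a groove on another, so the balance between members is usually considered along with the amount of each. Several members, MCL1 and PMAIP1 in particular, make short-lived proteins whose amount need not follow the transcript.

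The BH3 core is the element that the 3 kinds of member share, and its coding sequence is shown to make that relation visible. A search of protein-coding GENCODE 29 transcripts (GRCh38), taking for each gene the best ranked one with a match, for a leucine or methionine codon, any 3 codons, a glycine or alanine codon and an aspartate codon, and a hydrophobic codon 2 codons after the aspartate, found 1 such window in each of 8 members. Each run below is the coding strand of 9 codons (27 bases), and the capitals mark the glycine or alanine codon followed by the aspartate codon.
BCL2: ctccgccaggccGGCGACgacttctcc
BCL2L1: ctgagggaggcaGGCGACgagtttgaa
BAX: ctcaagcgcatcGGGGACgaactggac
BAK1: ctcgccatcatcGGGGACgacatcaac
BID: ctcgcccaggtcGGGGACagcatggac
BCL2L11: ttgcggcgtattGGAGACgagtttaac
PMAIP1: ctcaggagatttGGAGACaaactgaac
BBC3: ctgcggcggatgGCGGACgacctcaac
BBC3 was the member with an alanine codon in the first capital position, and the other 7 had glycine. Each window lay within a single coding exon, for example exon 4 of 6 of BAK1 at chr6:33575390-33575416 on the minus strand, exon 3 of 6 of BAX at chr19:48955787-48955813 on the plus strand and exon 2 of 3 of BCL2L1 at chr20:31721925-31721951 on the minus strand. MCL1 and BCL2L2 were not searched for this window and are named without a sequence.

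Library totals ran from 36315751 to 38148838 counts, and the members had 338 to 8194 counts per library. On the first principal component of log2 CPM (36.4% of the variance) the PBS libraries lay from -18.4 to -5.96. Replicates 1 and 2 of rhTR11B lay at 2.66 and 8.63, and library rhTR11B replicate 3 stood apart from the others at 25.7. The 13 mitochondrially encoded genes took 6.63% to 7.71% of counts with PBS and 7.88% to 10.4% with rhTR11B, the highest share being in rhTR11B replicate 3. Of 6 epithelial markers, KRT7, KRT8 and KRT18 were high (mean of 377, 924 and 692 CPM, library-scaled counts, with PBS), while EPCAM, CDH1 and KRT19 were nearly absent, with at most 10, 1 and 5 counts in any library. Of 6 alveolar type II markers, ABCA3 rose from 121 to 146 CPM with rhTR11B (edgeR adjusted p = 0.0429). NAPSA, with at most 19 counts in any library, stood at 0.404 CPM with PBS and 0.312 CPM with rhTR11B. Its log2 fold change was -0.37 (edgeR adjusted p = 0.638). The other 4 were not found and were not analysed here. Found markers of blood cells (2 of 5) and endothelial cells (3 of 4) summed to at most 0.589 and 0.416 CPM in any library. The 4 of 5 fibroblast markers found summed to 3.27 to 4.71 CPM with PBS and 5.05 to 6.14 CPM with rhTR11B, most of it COL1A1. The part of these values in the results below was not tested.

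In these libraries, labelled A549, transcript levels were high for BCL2L1, BAX and MCL1 and very low for BCL2. Levels of different genes are compared here per length, in the deposited FPKM (fragments per kilobase of gene length, scaled to the library total). With PBS, BCL2L1 had 57.6 ± 1.77 FPKM (SD, n = 3), BAX 52.5 ± 2.12 and MCL1 51.6 ± 3.27, which placed each of the 3 above the level of at least 91.7% of the 13567 tested genes. BAX and MCL1 overlapped between libraries and cannot be ordered, while the lowest BCL2L1 value, 55.6 FPKM, lay just above the highest BAX value, 54.9 FPKM. Spread between libraries does not include error from the gene length that FPKM uses, so levels this close are not ordered by it. BAK1 followed at 18.9 ± 0.160 FPKM and BID at 17.3 ± 0.983 FPKM, without overlap. Lower still were BCL2L2 at 10.2 ± 0.420, PMAIP1 at 8.45 ± 0.943, BBC3 at 5.27 ± 0.399 and BCL2L11 at 2.74 ± 0.167 FPKM. BCL2, the founding member of the family, was lowest at 1.18 ± 0.108 FPKM, above 22.4% of tested genes. These last 5 did not overlap with one another.

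**Figure D1:**
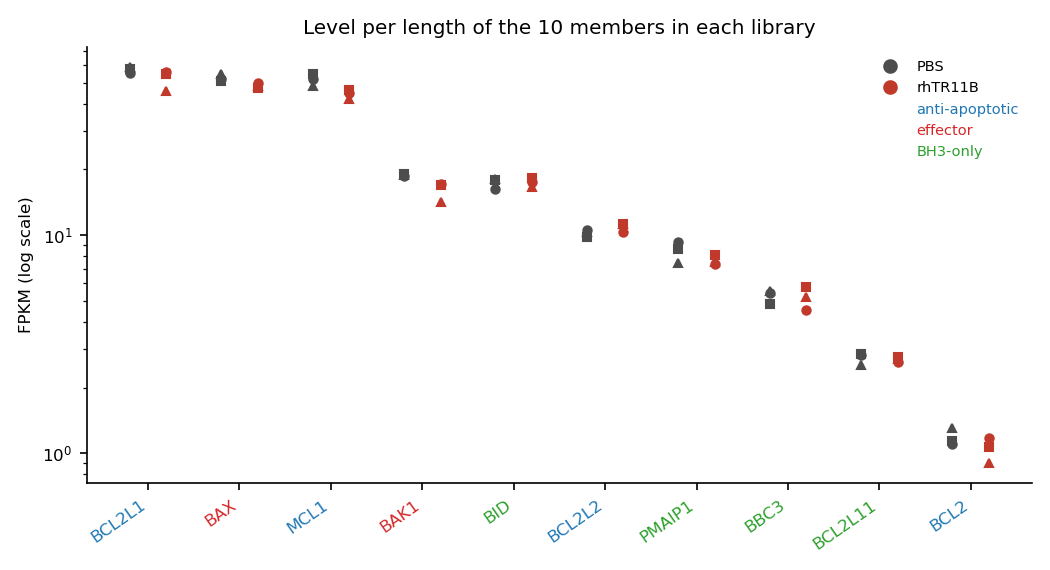
Level per length of each member, in FPKM on a log axis, with members ordered by their PBS mean and names coloured by role. Each point is a library (grey PBS, red rhTR11B, with circle, square and triangle for replicates 1, 2 and 3). BCL2L1, BAX and MCL1 lie between 42.0 and 59.1 FPKM, and BCL2 between 0.898 and 1.30 FPKM.

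With rhTR11B the order was nearly the same. BCL2L1 (52.2 ± 5.67 FPKM) now overlapped with BAX (48.5 ± 1.40 FPKM), and the highest MCL1 value, 46.1 FPKM, lay below the lowest BAX value, 47.3 FPKM. BID (17.5 ± 0.784 FPKM) had a higher mean than BAK1 (16.1 ± 1.63 FPKM), although their libraries overlapped. FPKM values use 1 length per gene and do not separate isoforms, such as the long and short forms of BCL2L1 and MCL1, which have opposite effects on survival.

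No member passed the test between rhTR11B and PBS. All 10 were expressed well enough to be tested with edgeR's quasi-likelihood test, and 0 had a Benjamini-Hochberg adjusted p under 0.05, where 3.60% of all tested genes did (2.92% higher and 0.678% lower). In whole cultures, fewer cells that carry a transcript and less of it per cell cannot be told apart. At an unadjusted p under 0.05 there were 2 members, MCL1 and BAK1, both lower, against 24.2% of all tested genes in either direction, 13.8% higher and 10.3% lower. At an adjusted p under 0.1 the same members were lower, where 4.10% of tested genes were. DESeq2 called 1 member, MCL1, as lower. Of the 11397 genes to which it gave an adjusted p, it called 9.64% in either direction and 3.15% lower. With no filter on low counts edgeR called MCL1 and BAK1, where it called 7.16% of genes and 2.43% lower. The limma-voom test called 0 members, where it called 3.18% of genes and 0.627% lower, and edgeR with the replicate number as a block also called 0, where it called 7.56% and 1.86% lower. The log2 fold change was negative for 8 members and positive for 2, with a median of -0.11 against 7.3e-05 over all tested genes, of which 49.97% were negative. The 8 include BCL2L11 (-0.0059) and BBC3 (-0.0093), which were near 0 and turned sign in some alternatives. The median size of the change was 0.12 for the members and 0.12 over all tested genes. The 95% intervals of the 10 changes ran at their widest from -23.5% for BCL2 to 19.6% for BCL2L2. The interval lay wholly below 0 for MCL1 (-20.5% to -5.26%) and BAK1 (-22.4% to -4.12%) and included 0 for the other 8 members.

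**Figure D2:**
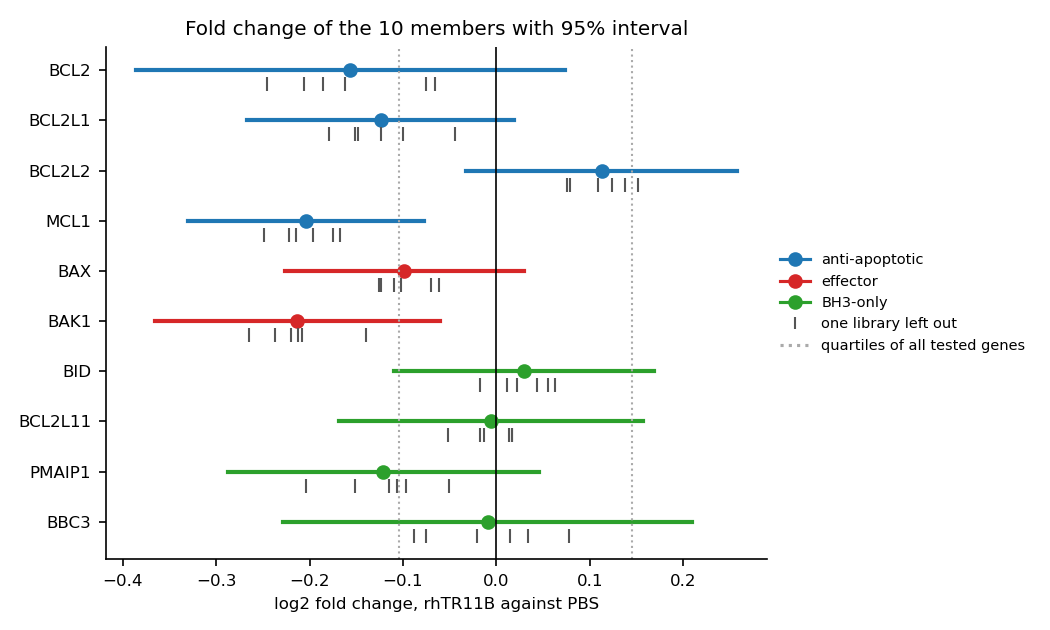
Log2 fold change of each member with rhTR11B against PBS (point) with its 95% interval from edgeR (line), coloured by role. Short ticks give the fold change with each library left out in turn, and dotted lines the quartiles of all tested genes (-0.10 and 0.15). Only the intervals of MCL1 and BAK1 lie wholly below 0.

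Among the anti-apoptotic genes, MCL1, which encodes the short-lived guardian that binds BAK1, NOXA and BIM, came nearest to passing. It had 205, 213 and 190 CPM in PBS replicates 1, 2 and 3 and 178, 181 and 169 CPM in rhTR11B replicates 1, 2 and 3. Every rhTR11B library lay below every PBS library. The mean was 203 ± 11.5 CPM with PBS and 176 ± 6.08 CPM with rhTR11B, a log2 fold change of -0.20 (SE 0.060, 95% interval -0.33 to -0.078, edgeR adjusted p = 0.0603). MCL1 lies at chr1:150574558-150579610 (GRCh38.p14). Its log2 fold change was -0.18 without rhTR11B replicate 3 (adjusted p = 0.0664) and -0.20 without the mitochondrially encoded genes (adjusted p = 0.0673). DESeq2 gave an adjusted p of 0.0197, and over all alternatives the adjusted p ran from 0.0197 to 0.253.

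BCL2L1, the member with the highest mean FPKM, had 163, 169 and 174 CPM with PBS and 166, 161 and 137 CPM with rhTR11B. The groups overlapped, and rhTR11B replicate 3 was the low value. Its log2 fold change of -0.12 (SE 0.068, adjusted p = 0.275) was -0.044 without that library (adjusted p = 0.722). BCL2 had 11.3, 11.6 and 13.5 CPM with PBS and 12.2, 11.0 and 9.48 CPM with rhTR11B. Here PBS replicate 3 was the highest and rhTR11B replicate 3 the lowest library. The log2 fold change was -0.16 (SE 0.11, adjusted p = 0.399), and it was -0.075 without PBS replicate 3 (adjusted p = 0.784) and -0.066 without rhTR11B replicate 3 (adjusted p = 0.815). Without rhTR11B replicate 1 it was -0.25 (adjusted p = 0.181).

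BCL2L2 was the anti-apoptotic gene that leaned the other way. It had 37.7, 34.6 and 37.0 CPM with PBS and 37.2, 39.6 and 41.3 CPM with rhTR11B, with overlap at rhTR11B replicate 1. Its log2 fold change was 0.11 (SE 0.069, 95% interval -0.033 to 0.26, adjusted p = 0.331) and stayed between 0.076 and 0.15 with any 1 library left out. BCL2L2 shares its locus with the readthrough gene BCL2L2-PABPN1, which had 6 to 21 counts per library, and how reads shared by both were assigned was not tested.

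**Figure D3:**
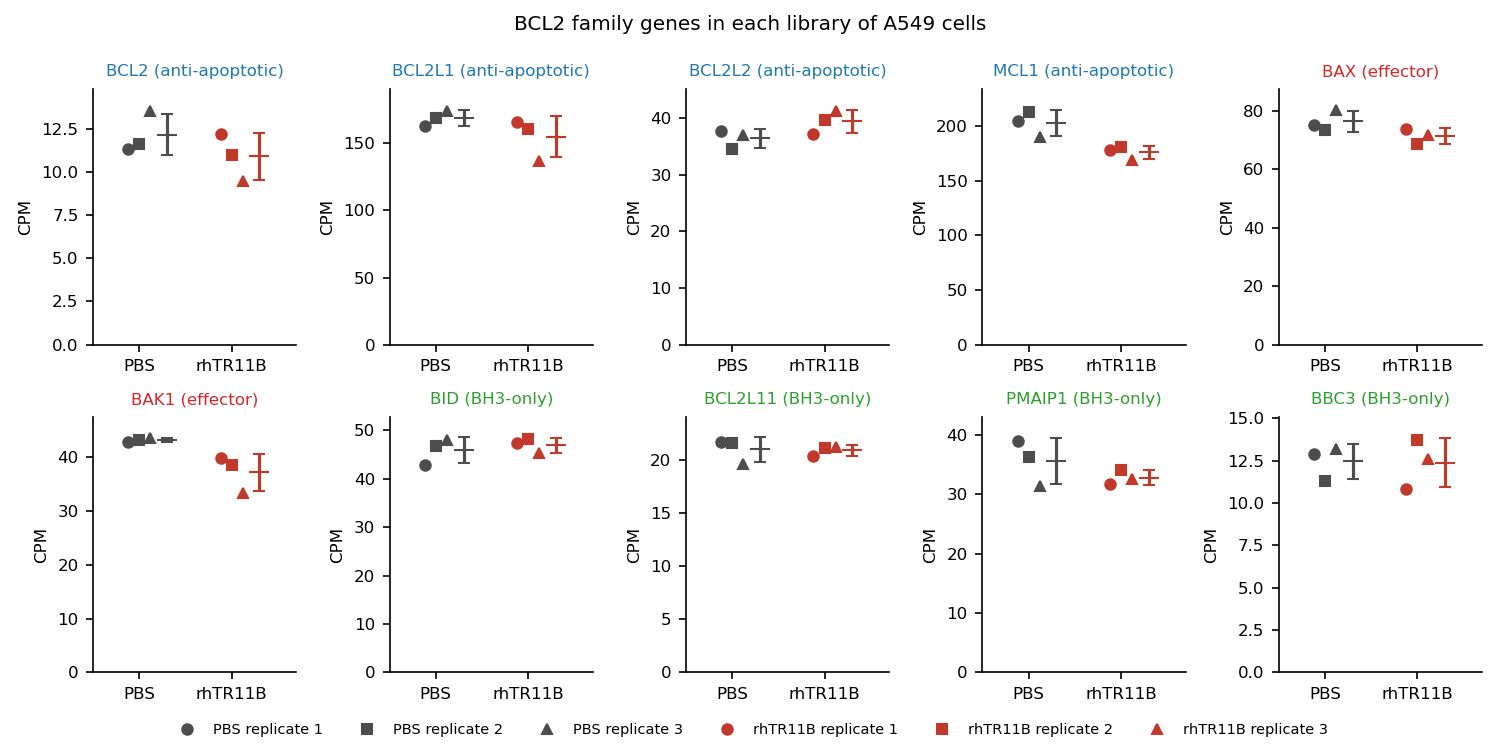
CPM of each member in each library, from 0 on each axis, with the mean and SD of each group beside the points (n = 3 per group). MCL1 and BAK1 are the members whose groups do not overlap. BAK1 lies between 42.8 and 43.5 CPM with PBS and between 33.3 and 39.8 CPM with rhTR11B.

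The effector genes both had negative changes. BAK1 sits in the mitochondrial outer membrane and is kept inactive by MCL1 and BCL-XL. It had 42.8, 43.2 and 43.5 CPM with PBS and 39.8, 38.5 and 33.3 CPM with rhTR11B. All rhTR11B libraries were below all PBS libraries, and rhTR11B replicate 3 was the lowest. The mean was 43.1 ± 0.347 CPM with PBS and 37.2 ± 3.43 CPM with rhTR11B. This is a log2 fold change of -0.21, with SE 0.073, a 95% interval of -0.37 to -0.061 and an edgeR adjusted p = 0.0880. Without rhTR11B replicate 3 the log2 fold change was -0.14 (adjusted p = 0.257), and without rhTR11B replicate 1 it was -0.27 and passed (adjusted p = 0.0448). That setting called 3.10% of all tested genes as lower (9.66% in either direction). The adjusted p of BAK1 ran from 0.0448 to 0.276 over all alternatives. BAK1 has pseudogene copies in the genome, and whether its counts share reads with them was not tested. Groups did not overlap for 2 members lower and 0 higher, and over all tested genes for 14.0% lower and 15.1% higher.

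BAX, the largely cytosolic effector that moves to mitochondria on activation, had 75.3, 73.5 and 80.4 CPM with PBS and 73.7, 68.5 and 71.8 CPM with rhTR11B. Only rhTR11B replicate 1 reached into the PBS range. The log2 fold change was -0.099 (SE 0.061, adjusted p = 0.335) and ran from -0.13 to -0.061 with any 1 library left out. The difference between the changes of BAX and BAK1 was not tested.

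The promoters of the effector genes are shown because the groups did not overlap for BAK1 and did overlap for BAX. Each runs from 250 bases before to 50 after the RefSeq start (GRCh38.p14). The capitals mark the GC box GGGCGG, the CCAAT box CCAAT and the E-box CACGTG on either strand, and the TATA box TATAAA was searched too. No motif overlaps another.
BAK1, chr6:33580227-33580526, minus strand: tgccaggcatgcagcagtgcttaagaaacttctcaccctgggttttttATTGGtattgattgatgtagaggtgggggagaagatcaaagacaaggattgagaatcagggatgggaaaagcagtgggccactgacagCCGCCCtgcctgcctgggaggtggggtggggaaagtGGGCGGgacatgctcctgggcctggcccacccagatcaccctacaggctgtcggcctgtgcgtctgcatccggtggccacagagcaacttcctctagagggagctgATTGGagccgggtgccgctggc
BAX, chr19:48954625-48954924, plus strand: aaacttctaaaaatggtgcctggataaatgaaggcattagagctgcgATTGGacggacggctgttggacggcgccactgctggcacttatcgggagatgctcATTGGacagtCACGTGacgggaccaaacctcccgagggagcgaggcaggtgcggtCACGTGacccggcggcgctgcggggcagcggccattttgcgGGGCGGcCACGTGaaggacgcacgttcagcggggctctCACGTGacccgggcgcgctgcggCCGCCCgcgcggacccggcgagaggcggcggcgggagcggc
Both windows held 2 GC boxes and 2 CCAAT boxes and no TATA box. The BAX window held 4 E-boxes and the BAK1 window 0, where 7.26% of 35116 promoter windows held at least 1. A GC box was present in 44.95% and a CCAAT box in 34.6% of all windows, and a TATA box in 11.5%. Of the 8 members with a promoter, 6 had a GC box at some start, 4 a CCAAT box, 3 an E-box and 1, BCL2L1, a TATA box. Some members have several starts, while the shares over all promoters count single windows. Of the 13 member windows, 9 held a GC box, 4 a CCAAT box, 4 an E-box and 1 a TATA box. These matches describe letters only.

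The BH3-only genes held the 3 members with the smallest changes, BCL2L11, BBC3 and BID. BID, which links death receptors to mitochondria once caspase-8 has cut it, had 42.9, 46.8 and 48.0 CPM with PBS and 47.3, 48.1 and 45.2 CPM with rhTR11B. The groups overlapped (log2 fold change 0.030, SE 0.066, 95% interval -0.11 to 0.17, adjusted p = 0.823), and the sign turned without PBS replicate 1 (-0.017). BCL2L11, whose BIM protein binds all anti-apoptotic members, had 21.7, 21.6 and 19.6 CPM with PBS and 20.3, 21.1 and 21.2 CPM with rhTR11B. Its log2 fold change was -0.0059 (SE 0.077, 95% interval -0.17 to 0.16, adjusted p = 0.973).

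PMAIP1, whose NOXA protein binds MCL1 selectively, had 39.1, 36.4 and 31.5 CPM with PBS and 31.7, 34.2 and 32.6 CPM with rhTR11B. PBS replicate 3 lay below all the rhTR11B libraries, while the other PBS libraries lay above them. The log2 fold change was -0.12 (SE 0.079, adjusted p = 0.364), and it moved to -0.20 without PBS replicate 3 (adjusted p = 0.221) and to -0.051 without PBS replicate 1 (adjusted p = 0.773). BBC3, which encodes PUMA, had 12.9, 11.3 and 13.2 CPM with PBS and 10.8, 13.7 and 12.6 CPM with rhTR11B. The lowest and the highest library were both rhTR11B libraries (log2 fold change -0.0093, SE 0.10, 95% interval -0.23 to 0.21, adjusted p = 0.969).

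The balance between the kinds of member, was computed within each library from FPKM and is given as a description. The 10 members summed to 224, 227 and 226 FPKM with PBS and 212, 212 and 194 FPKM with rhTR11B. Anti-apoptotic genes made up 53.4% ± 0.854 of that sum with PBS and 52.6% ± 1.05 with rhTR11B, effectors 31.6% ± 0.950 and 31.3% ± 1.01. BH3-only genes made up 15.1%, 15.0% and 14.8% with PBS and 15.2%, 16.4% and 16.5% with rhTR11B. Their summed level was 33.8 ± 0.301 FPKM with PBS and 33.1 ± 1.60 FPKM with rhTR11B, so their larger share went with a lower sum of the other members.

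Of 9 ratios between single members, 7 overlapped between groups. The ratio of BAX to BCL2 was 47.2, 44.8 and 42.2 with PBS and 42.8, 44.2 and 53.7 with rhTR11B, and that of BAX to BCL2L1 0.931, 0.879 and 0.929 with PBS and 0.893, 0.860 and 1.05 with rhTR11B. In both, rhTR11B replicate 3 was the high value and the other rhTR11B libraries lay within or below the PBS range. BAK1 to MCL1 was 0.366 ± 0.0230 with PBS and 0.363 ± 0.0226 with rhTR11B, with overlap. PMAIP1 to MCL1 was 0.163 ± 0.0123 with PBS and 0.173 ± 0.00734 with rhTR11B. The ratios that did not overlap were BCL2L11 to MCL1 and BAK1 to BCL2L1. BCL2L11 to MCL1 was 0.0541, 0.0521 and 0.0529 with PBS and 0.0584, 0.0599 and 0.0644 with rhTR11B. BAK1 to BCL2L1 was 0.336, 0.328 and 0.319 with PBS and 0.307, 0.307 and 0.311 with rhTR11B. No share without overlap was computed for ratios of other genes. Among single tested genes 14.0% were lower and 15.1% higher without overlap. The log2 fold change of BCL2L11 alone was -0.0059 and that of MCL1 -0.20, so the first ratio largely repeats the MCL1 values.

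Outside the 10 members, 6 lists of apoptosis genes held 57 genes, of which 55 were found and 52 tested. In these lists edgeR called 1 gene higher and 0 lower, where 2.92% and 0.678% of all tested genes were called. At an unadjusted p under 0.05 there were 6 higher and 8 lower of the 52, against 13.8% and 10.3% of all tested genes. DESeq2 called 1 higher and 2 lower, where it called 9.64% of the genes with an adjusted p in either direction and 3.15% lower. The called gene was FAS, the death receptor for FAS ligand, with 22.9, 25.2 and 20.9 CPM with PBS and 28.3, 31.2 and 35.2 CPM with rhTR11B. The groups did not overlap (log2 fold change 0.46, SE 0.089, adjusted p = 0.0138). Without PBS replicate 3 its log2 fold change was 0.39 and did not pass (adjusted p = 0.144), and limma on log2(FPKM + 1) did not call it either (adjusted p = 0.0749). In the death receptor list 9 of 10 genes were tested, with a median of 0.15, and 5 of the 9 were higher at an unadjusted p under 0.05, against 13.8% of all tested genes. Besides FAS these were TNFRSF1A (0.25), TNFRSF10A (0.21), TNFRSF10B (0.19) and CFLAR (0.15), named after their values were seen. Their adjusted p ran from 0.0803 for TNFRSF1A to 0.131 for CFLAR. TNFRSF1A passed with the replicate block (adjusted p = 0.0221), with no filter on low counts (0.0142) and without rhTR11B replicate 1 (0.0342). TNFRSF10B passed with no filter (adjusted p = 0.0498) and without rhTR11B replicate 1 (0.0449), and TNFRSF10A without that library (0.04996). Without rhTR11B replicate 3 TNFRSF1A stood at 0.14 (adjusted p = 0.246) and TNFRSF10B at 0.13 (adjusted p = 0.190).

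All 12 apoptosome and caspase genes, which act after the BCL2 family, were tested. The change was negative for 11, against 49.97% of all tested genes, with a median of -0.12. None was called, and 3 were lower at an unadjusted p under 0.05, against 10.3% of all tested genes. ENDOG, a nuclease of the mitochondrial intermembrane space, stood at -0.28 (SE 0.087, adjusted p = 0.0732), and CYCS, which encodes cytochrome c, at -0.25 (SE 0.087, adjusted p = 0.0928). CYCS stood at -0.14 without rhTR11B replicate 3 (adjusted p = 0.238) and -0.16 without PBS replicate 2 (adjusted p = 0.395), and passed without rhTR11B replicate 1 (adjusted p = 0.0346). With no filter on low counts both passed (adjusted p = 0.0236 for ENDOG and 0.00414 for CYCS), and with the replicate block both did (0.0422 and 0.0146). The 10 partners and turnover factors had a median of -0.10, with 0 called and 2 lower at an unadjusted p under 0.05, where 10.3% of all tested genes were. These were the outer membrane channels VDAC2, which retains BAK1 at mitochondria, at -0.19 (adjusted p = 0.0612) and VDAC1 at -0.21 (adjusted p = 0.0696), both called lower by DESeq2 (adjusted p = 0.0197 and 0.0268). Both also passed in edgeR with no filter (adjusted p = 0.0355 and 0.0148) and without rhTR11B replicate 1 (0.0400 and 0.0373). VDAC2 had 156, 155 and 158 CPM with PBS and 143, 137 and 131 CPM with rhTR11B, without overlap.

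Of 5 inhibitors of apoptosis proteins, some of which block caspases or act as ubiquitin ligases, 0 were called and 2 were lower at an unadjusted p under 0.05 (10.3% of all tested genes). They were XIAP at -0.18 (adjusted p = 0.0926) and BIRC5 at -0.15 (adjusted p = 0.135). Without rhTR11B replicate 3 BIRC5 stood at -0.095. Among 12 other BCL2 family genes 10 were found and 8 tested, with a median of -0.067 and 0 called. At an unadjusted p under 0.05, 1 was higher, against 13.8% of all tested genes. That gene was BMF, a BH3-only gene, at 0.33 (SE 0.16, adjusted p = 0.206), and BCL2L13 was next at -0.096 (adjusted p = 0.369) and stood at -0.044 without rhTR11B replicate 3. BCL2A1 had 1 count in rhTR11B replicate 3 and 0 in the other libraries. Of 8 stress factors that regulate BH3-only genes 0 were called and 1 was lower at an unadjusted p under 0.05 (10.3% of all tested genes). It was DDIT3 (CHOP) at -0.23 (adjusted p = 0.130). JUN followed at -0.11 (adjusted p = 0.339) and stood at -0.057 without PBS replicate 1.

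**Figure D4:**
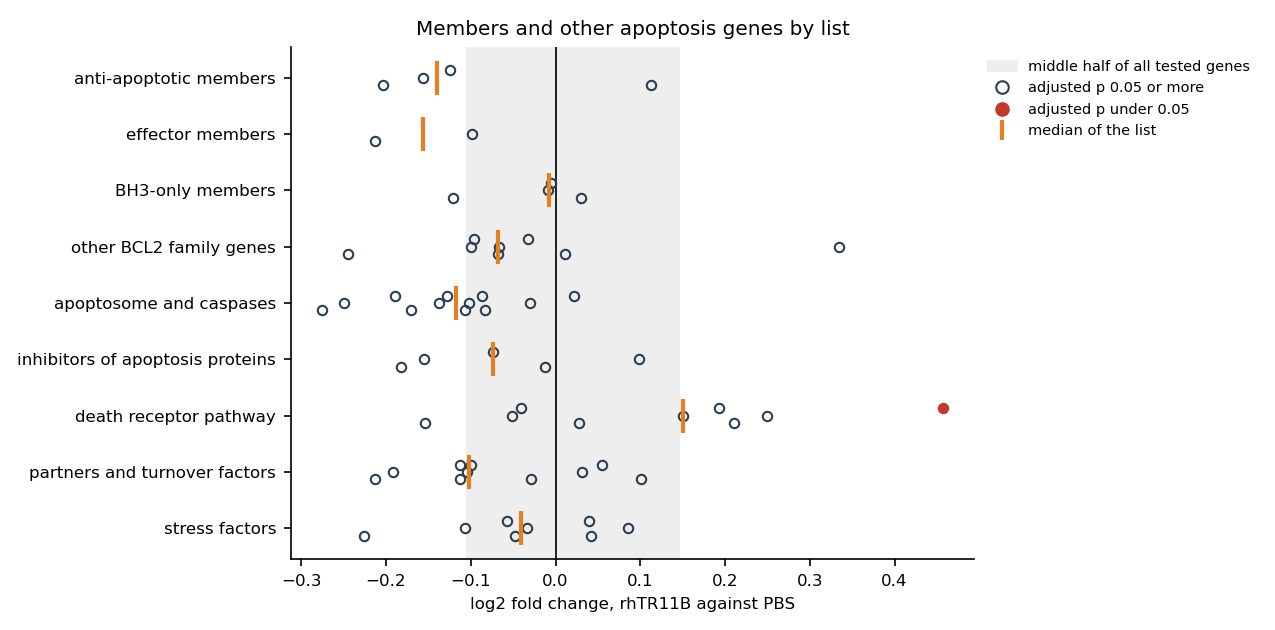
Log2 fold change with rhTR11B against PBS of each tested gene in the 3 member groups and the 6 other lists (circles), with the median of each list (orange bar) and the range between the quartiles of all tested genes (grey, -0.10 to 0.15). The filled circle is FAS, the gene with an adjusted p under 0.05. The median is -0.14 for anti-apoptotic members, -0.16 for effectors and -0.0076 for BH3-only members.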

How the data were processed

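RNA of 6 libraries was sequenced, and the authors deposited 1 table of read counts and 1 of FPKM, each per gene symbol. The submitters' processing notes name the build GRCh38 and the tools DESeq2, fastp, HISAT, HTSeq and R 3.2.0. What each tool did, the annotation and the strand setting were not given in the sources used here. Reads of genes that overlap can therefore not be told apart. For 100% of genes with counts the FPKM equalled the count over a gene length and the library total (relative tolerance 0.001). Gene positions and promoters came from RefSeq tables of GRCh38.p14 (8 members had a promoter, MCL1 and BCL2L2 did not) and coding windows from GENCODE 29.

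Counts were tested with edgeR 4.0.16 in R 4.3.3: filterByExpr (minimum count 10), TMM scaling, group as the only term, quasi-likelihood test and Benjamini-Hochberg adjustment over 13567 genes. CPM used TMM-scaled totals, and the standard error is the log2 fold change over the square root of F. Between libraries of the same group chi-square per degree of freedom was 5.13 to 24.7, so none looked like a library deposited again. This does not show separate cultures. Fits were tested on simulated data. Alternatives were DESeq2 size factors, library totals alone, DESeq2 1.42.0, limma-voom and limma-trend on log2 FPKM (limma 3.58.1), other filters and thresholds, the replicate block, no mitochondrially encoded genes, and each library left out.

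The members and lists were chosen with earlier results of these data known. Named were all members and, from each other list, up to 4 called genes or else the 2 with the smallest p. The result of 1 gene is not reported here.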

Additional observations from a re-analysis of the deposited data

How the results depend on the processing

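Of 190 values for the members under alternatives, 175 kept their sign and their side of the threshold, 6 passed it and 9 turned sign. MCL1 passed with DESeq2 (log2 fold change -0.21), with no filter on low counts (-0.21) and at an adjusted p under 0.1 (-0.20). BAK1 passed with no filter (-0.22), at an adjusted p under 0.1 (-0.21) and without rhTR11B replicate 1 (-0.27). With each library left out in turn BAK1 ran from -0.27 to -0.14, MCL1 from -0.25 to -0.17, BID from -0.017 to 0.062, BCL2L11 from -0.052 to 0.017 and BBC3 from -0.088 to 0.078. With a mean of at least 5 CPM BCL2L11 stood at 0.0045 and BBC3 at 0.0015. Of members, 1 was called lower with DESeq2, 2 with no filter, 2 at an adjusted p under 0.1, and 0 to 1 with each library left out. All 20 group levels moved by less than 1 SD on library totals alone.

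Other list genes called higher numbered 3 with no filter, 2 with the replicate block, 4 at an adjusted p under 0.1, 0 under 0.01, 0 in each FPKM fit and 0 to 4 with a library left out. Those called lower numbered 2 with DESeq2, 4 with no filter, 2 with the block, 5 under 0.1 and 0 to 3 with a library left out. Over all genes 396 were higher and 92 lower. These became 740 and 359 with DESeq2, 940 and 483 with no filter, 205 and 26 with at least 5 CPM, 1056 and 556 under 0.1, 45 and 5 under 0.01, 62 and 21 with log2(FPKM + 1), 64 and 22 with log2(FPKM + 0.1) and 0 and 0 with unfiltered FPKM, where 0 members passed too. With a library left out they ran from 9 to 903 higher and from 3 to 427 lower, the fewest without PBS replicate 3 (9 and 3) and PBS replicate 2 (18 and 5) and the most without rhTR11B replicate 1. The cause was not tested.

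Libraries with the same replicate number did not deviate together (correlations over genes of -0.10, 0.05 and -0.01). The replicate block gave 774 higher and 252 lower genes and called 0 members, with MCL1 at -0.20 (adjusted p = 0.0568) and BAK1 at -0.22 (0.0606).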
